A study of Mus musculus with 16 samples.

Results

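*Mt1* and *Mt2* are the metallothionein genes examined here, 2 of 29629 Ensembl genes in a single-cell count table of tendon-directed cells and 2 of 47729 in a count table of Achilles tendon. They were picked because earlier work on these data had shown their level to differ between the time points, between classes of untreated cells, and between tendons with and without *Scx*. Their levels in those 3 settings are therefore given as a description with no test. The tests on *Mt1* and *Mt2* concern classes of cells that were not used to pick them.

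Metallothioneins are small, cysteine-rich proteins that bind zinc and copper and take up cadmium and other toxic metals. Free zinc activates the transcription factor MTF1, which binds metal response elements (MREs) in the promoters of *Mt1*, *Mt2*, and the zinc exporter gene *Slc30a1*, so the pair works as a buffer that follows the zinc supply. Glucocorticoids and oxidative stress also induce them. *Mt1* and *Mt2* are made in most tissues, while *Mt3* is best known from brain and *Mt4* from stratified epithelia.

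The single cells came from ScxGFP iPSCs of 1 clone, which carry a fluorescent reporter of *Scx*, the gene of the tendon transcription factor Scleraxis. They were kept on feeder cells in medium with 2i and LIF and were brought to a mesodermal state. T0 cells had no TGF-β2 and, by the labels, were induced in medium with 5% FBS and ITS (insulin, transferrin, and selenite). The methods of the study add induction with CHIR and cyclopamine, and they place T0 after a day of pre-conditioning in 1% FBS without TGF-β2, which the labels leave out. T3, T6, and T9 cells had 10 ng/ml of recombinant human TGF-β2 for 3, 6, and 9 days in medium with 1% FBS and ITS. T0 cells were detached with trypsin alone and later cells with collagenase before trypsin. Live single cells were sorted into 384-well plates, 3 per time point, and read at the 3′ end with CEL-Seq2, in which each molecule carries a unique molecular identifier (UMI). The second table covered Achilles tendons of littermates aged 2 weeks, 2 Scx_Wt and 2 Scx_homoKO, read as bulk poly(A) RNA.

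All 12 plates used the same 384 well barcodes, and 4594 of 4608 wells held at least 200 genes. The plates held 1921125 to 4657093 UMIs, and from T0 to T9 the median cell held 10175, 5703, 8794, and 7900 UMIs. The tendon samples held 11188270 to 12398560 counts. Levels are in CPM, the counts of a gene per 1000000 counts of the same cells or sample. Over the 10 tenocyte markers the summed level was 810 to 830 CPM at T0 and 16856 to 44460 CPM at T9. The 8 pluripotency markers summed to 371 to 780 CPM at T0, 105 to 156 CPM at T3, 8.27 to 140 CPM at T6, and 0.332 to 296 CPM at T9. No source used here says whether the plates of a time point came from separate cultures. Over the time course, p-values therefore measure only the spread between plates. For cell classes, with the plate as a block, they measure only how the class difference varied over plates.

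Both genes lie head to tail on the plus strand of mouse chromosome 8 (GRCm38), with 5513 bases between them. *Mt2* (ENSMUSG00000031762) spans chr8:94172664-94173568, and *Mt1* (ENSMUSG00000031765) spans chr8:94179082-94180327. The promoter windows of the RefSeq table for GRCm38.p6 are shown because MTF1 binds in the promoters of both genes. Each runs from 250 bases before the annotated start to 50 bases after it, on the plus strand, at chr8:94178839-94179138 for *Mt1* and chr8:94172368-94172667 for *Mt2*. Capitals mark the MRE core, searched as TGCACNC or TGCGCNC on both strands.
Mt1: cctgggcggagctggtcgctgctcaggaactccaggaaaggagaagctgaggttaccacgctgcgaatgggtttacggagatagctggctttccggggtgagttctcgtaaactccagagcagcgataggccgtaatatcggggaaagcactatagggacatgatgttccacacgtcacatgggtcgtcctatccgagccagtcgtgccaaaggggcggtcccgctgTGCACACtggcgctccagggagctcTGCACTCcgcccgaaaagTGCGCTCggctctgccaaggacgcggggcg
Mt2: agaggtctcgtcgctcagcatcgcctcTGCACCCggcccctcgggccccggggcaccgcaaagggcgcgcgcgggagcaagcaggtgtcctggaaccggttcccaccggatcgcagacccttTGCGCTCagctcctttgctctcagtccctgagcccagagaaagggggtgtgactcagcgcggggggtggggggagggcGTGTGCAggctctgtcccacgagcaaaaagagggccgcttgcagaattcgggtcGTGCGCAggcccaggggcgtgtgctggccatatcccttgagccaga

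The *Mt1* window held 3 MRE cores, all close to the RefSeq start, from base −23 to base 27 relative to it, and the *Mt2* window held 4, spread from −223 to 11. Of 32851 promoter windows, 25.7% held at least 1, 1.97% held 3 or more, and 0.517% held 4 or more. The *Slc30a1* window held 2 and the window of *Mtf1* itself held 0. Both genes also have shorter transcripts that start farther downstream, at 94179211 and 94179241 for *Mt1* and at 94172860 for *Mt2*. The first exon of the longest *Mt1* transcript held 4 MRE cores before the 94179211 start, 2 of them within the window shown, and that of *Mt2* held 3 beyond the window. A GC box, searched as GGGCGG, occurred 3 times in the *Mt1* window and in 35.7% of windows, but not in that of *Mt2*. The core of the antioxidant response element, TGACNNNGC, occurred once in the *Mt2* window and in 12.4% of windows. A TATA box, searched as TATAAA, occurred in 13.6% of windows but in neither of the 2 shown. The first exon of the longest transcript held 1, at 94179210 for *Mt1* and at 94172753 for *Mt2*, downstream of the RefSeq start. These are matches of letters and not bound sites. Reads of the pair can be told apart, since none of the 1278 windows of 36 bases of *Mt1*, or the 568 of *Mt2*, occurred in a transcript of another gene.

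*Mt1* was highest at T0, lowest at T3, and higher again at T9. At T0 its level was 392, 242, and 223 CPM on plates 1, 2, and 3 (285.6 ± 92.9 CPM, SD, n = 3 plates). At T3 it was 22.9, 78.5, and 20.6 CPM (40.6 ± 32.8 CPM), so every T3 plate lay below every T0 plate, and the T3 mean was 7.03-fold lower. At T6 it was 131, 58.9, and 119 CPM (102.9 ± 38.6 CPM), which overlapped T3 through the plates T6-2 and T3-2. At T9 it was 168, 350, and 85.9 CPM (201 ± 135 CPM), and these plates overlapped both T6 and T0.

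*Mt2* was also highest at T0 and low at T3. Its levels at T0 were 335, 207, and 155 CPM, and those at T3 were 15.6, 77.7, and 10.8 CPM, again with no overlap and with a mean 6.68-fold lower at T3. At T6 they were 86.0, 7.95, and 21.9 CPM, a range that covered all 3 T3 plates. At T9 they were 69.8, 223, and 29.5 CPM, which overlapped T0 through T9-2. In CPM, neighbouring time points from T3 on therefore overlapped for both genes. Of 13372 genes tested over the time course with edgeR, 17.0% were higher and 16.2% lower at T3 than at T0, 2.61% were higher and 1.63% lower at T6 than at T3, 0.935% higher and 0.688% lower at T9 than at T6, and 23.6% higher and 21.6% lower at T9 than at T0. *Mt1* and *Mt2* were chosen on these differences, so nothing is read from their standing among those genes.

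**Figure D1:**
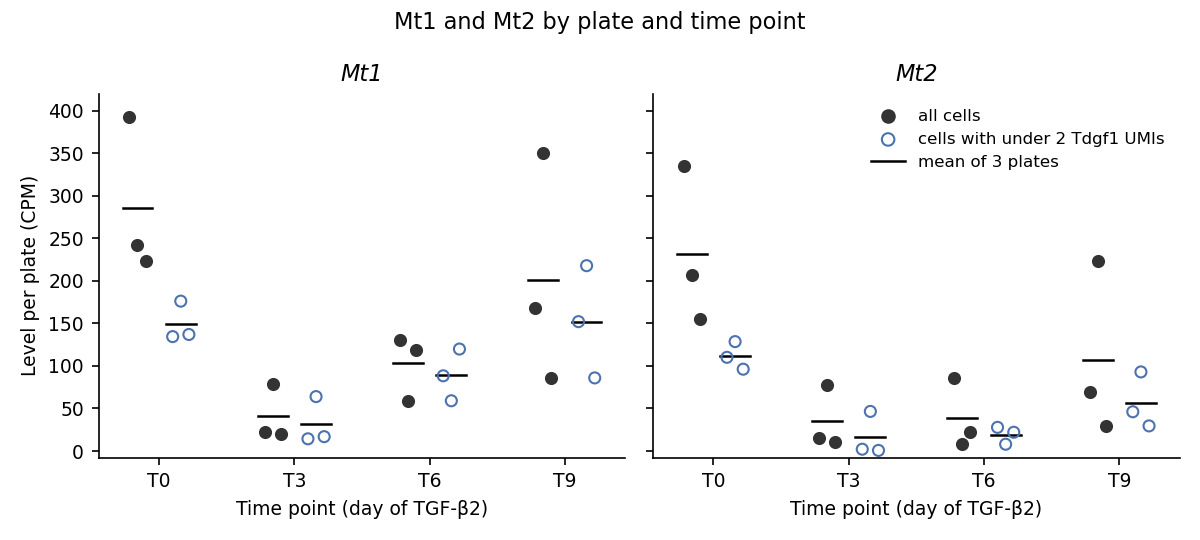
Level of *Mt1* and *Mt2* (CPM, y axis) on each of the 3 plates per time point (x axis), in all cells (filled circles) and in cells with under 2 *Tdgf1* UMIs (open circles), with a line for each mean. All T3 plates sit below all T0 plates for both genes, and the T9 plates spread from 85.9 to 350 CPM for *Mt1*.

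The plates also differed in how many reads fell outside annotated features, by the study's own mapping summary. The plates with more such reads were the 3 T0 plates, T3-2, T6-1, T6-3, and T9-3. Among them the *Mt1* level was 223 to 392 CPM at T0, 78.5 CPM in T3-2, 131 and 119 CPM in T6-1 and T6-3, and 85.9 CPM in T9-3. In the others it was 22.9 and 20.6 CPM at T3, 58.9 CPM at T6, and 168 and 350 CPM at T9. T0 had only plates of the first kind, so the 2 kinds cannot be compared there, and the part of this split in the levels was not tested.

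Fewer cells held any *Mt1* UMI at T3 than at T0, also at equal depth. A *Mt1* UMI was found in 41.4%, 6.17%, 17.8%, and 27.2% of cells at T0, T3, T6, and T9, and a *Mt2* UMI in 25.5%, 2.78%, 4.70%, and 13.1%. With every cell thinned to 3000 UMIs, the mean of the 3 plates was 20.1%, 3.53%, 10.6%, and 16.2% for *Mt1*. Thinning left out 76, 113, 68, and 36 cells with fewer UMIs. The order of the time points was the same before and after thinning. On single plates the *Mt1* share was 3.91%, 9.14%, and 5.47% at T3 and 17.0%, 14.1%, and 22.2% at T6, without overlap. Thinned, it was 2.80%, 4.68%, and 3.12% against 8.93%, 8.53%, and 14.2%, again without overlap. The *Mt2* share overlapped between T3 and T6, and no test was run on these shares.

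A few cells carried a large part of the signal. At T0, 18 of 1147 cells held 50% of all *Mt1* and *Mt2* UMIs, while 49.5% of cells held none. At T3, 4 of 1151 cells held 50%, and 92.4% held none. The numbers were 6 cells at T6 and 12 at T9. The 10 cells with the most UMIs held 37.1% of the pair's UMIs at T0, then 78.4%, 61.2%, and 45.5% at the later times, and the highest single cells held 509, 127, 240, and 215. Without those 10 cells per time point, the *Mt2* difference between T3 and T0 moved from −2.74 to −5.13 on the log2 scale. The cells were picked by the pair's own UMIs and held a larger share at T3, so leaving them out widens the gap by itself. At T3 they held 461 of the pair's 588 UMIs, so few were left there.

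**Figure D2:**
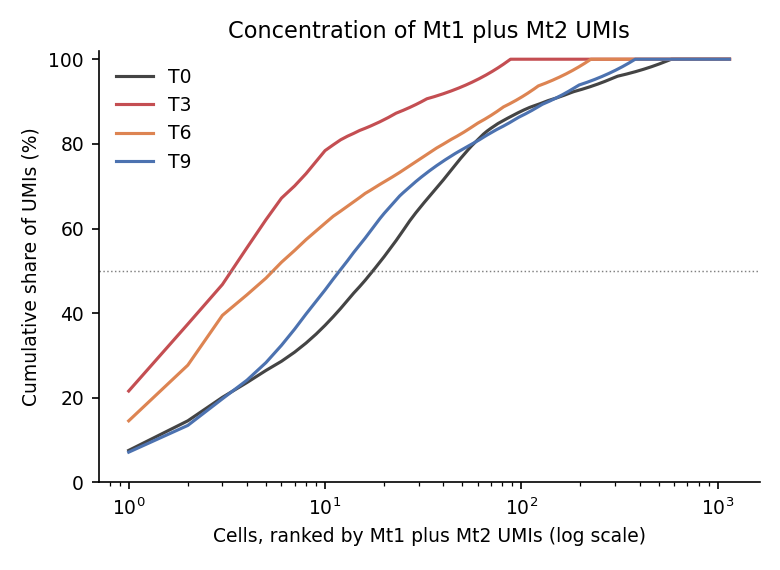
Cumulative share of the *Mt1* and *Mt2* UMIs of a time point (percent, y axis) over cells ranked by their UMIs of the pair (x axis, log scale), 1 line per time point, with a dotted line at 50%. The T3 line climbs fastest, with 4 cells holding 50% of the UMIs, and the T0 line slowest, with 18.

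Within cells the pair went together at T0, and less evenly later. At T0, 188 cells held UMIs of both genes, 287 of *Mt1* alone, 104 of *Mt2* alone, and 568 of neither. Of the cells with a *Mt2* UMI, 64.4%, 46.9%, 59.3%, and 54.7% from T0 to T9 also held *Mt1*. Of those with a *Mt1* UMI, 39.6%, 21.1%, 15.7%, and 26.3% also held *Mt2*. Pearson's r of the 2 genes over the cells of a T0 plate was 0.72, 0.68, and 0.67, where the points share a library and a range of depths. On the 3 plates it was 0.34, 0.75, and 0.30 at T3, 0.60, 0.31, and 0.43 at T6, and 0.50, 0.57, and 0.36 at T9. Their proportion shifted, with 1.22 *Mt1* UMIs for each *Mt2* UMI at T0 and 1.16, 2.64, and 1.89 at the later times. At T6 that ratio was 1.52, 7.40, and 5.43 on the 3 plates, and T6-2 and T6-3 lay above all T0 plates (1.17, 1.17, and 1.44).

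*Mt1* and *Mt2* were much higher in T0 cells with *Tdgf1*, which encodes Cripto, a Nodal co-receptor of pluripotent cells and early mesoderm. In all, 77 T0 cells held 2 or more *Tdgf1* UMIs (33, 25, and 19 per plate). Their *Mt1* level was 1929, 754, and 1262 CPM on the 3 plates, against 134, 176, and 137 CPM in the other T0 cells. Their *Mt2* level was 1672, 816, and 864 CPM, against 110, 129, and 96.1 CPM. The classes did not overlap on any plate, and their pooled levels differed 9.37-fold for *Mt1* and 10.9-fold for *Mt2*. These 77 cells held 56.3% of the T0 UMIs of the pair. A *Mt1* UMI was present in 89.6% of them and in 37.9% of the others, or 62.3% and 16.7% at 3000 UMIs per cell, and their median depth was 18066 against 9903 UMIs.

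The T0 cells with a *Scx* UMI had less of both genes, and most clearly of *Mt2*. There were 56 such cells (19, 19, and 18 per plate), none of which held 2 *Tdgf1* UMIs. Their *Mt1* level was 140, 52.3, and 24.2 CPM, against 409, 253, and 234 CPM in cells without *Scx*. With the *Tdgf1* cells left out, the cells without *Scx* had 134, 185, and 144 CPM, and the classes then overlapped through plate 1. For *Mt2* the *Scx* cells had 20.4, 4.02, and 14.5 CPM, which rests on 10 UMIs in all. The other cells had 356, 219, and 163 CPM, or 117, 137, and 101 CPM without the *Tdgf1* cells, so the *Mt2* classes did not overlap either way. A *Mt2* UMI was present in 16.1% of the *Scx* cells and in 25.9% of the others.

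**Figure D3:**
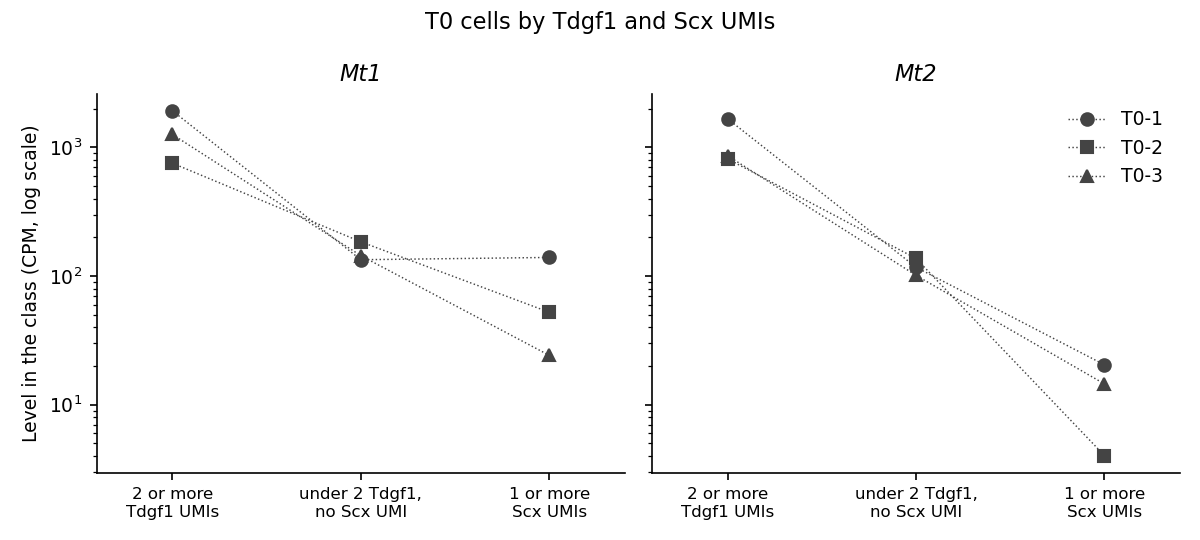
Level of *Mt1* and *Mt2* (CPM, log scale, y axis) on the 3 T0 plates in cells with 2 or more *Tdgf1* UMIs, cells with neither those nor a *Scx* UMI, and cells with a *Scx* UMI (x axis), with 1 symbol per plate. The *Tdgf1* cells reach 754 to 1929 CPM for *Mt1* and the *Scx* cells 24.2 to 140 CPM.

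The *Tdgf1* cells also shaped the time course. With all cells of 2 or more *Tdgf1* UMIs left out, *Mt1* stood at 134, 176, and 137 CPM at T0 and at 14.3, 63.9, and 16.9 CPM at T3, still without overlap, and the log2 difference moved from −2.81 to −2.23. At T9 it stood at 152, 218, and 85.9 CPM, a mean of 151.9 CPM beside 149 CPM at T0, so the log2 difference of T9 and T0 went from −0.51 to 0.03. *Mt2* stood at 110, 129, and 96.1 CPM at T0, 2.13, 46.5, and 0.718 CPM at T3, 27.8, 7.98, and 22.0 CPM at T6, and 46.1, 92.9, and 29.5 CPM at T9, where all T9 plates remained below all T0 plates.

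The cells richest in the pair had genes of pluripotent cells at every time point, and much *Srgn* and *Lama1* at T6 and T9. These genes are named here after their values were seen. There were 64 T0 cells with at least 20 UMIs of the pair, of which 42 held 2 or more *Tdgf1* UMIs. Against the other T0 cells they had 1425 against 88.3 CPM of *Utf1* and 633 against 48.7 CPM of *Sox2*, both genes of pluripotent cells, and 47.9 against 294 CPM of *Col1a1*, a collagen of tendon and bone. None held a *Scx* UMI. The 6 such cells of T3, of which 3 held 2 or more *Tdgf1* UMIs, had 920 against 17.1 CPM of *Utf1*. They had 984 against 22.0 CPM of *Sox2* and held no UMI of *Srgn* or *Lama1*. At T6 there were 12 such cells and at T9 27, of which 4 and 9 held 2 or more *Tdgf1* UMIs. There the high cells again had more *Utf1*, with 484 against 3.29 CPM at T6 and 486 against 15.3 CPM at T9. *Sox2* was 283 against 1.64 CPM at T6 and 708 against 10.7 CPM at T9. Beside these they had much *Srgn*, the proteoglycan serglycin, with 2878 against 22.8 CPM at T6 and 1254 against 57.8 CPM at T9. They also had *Lama1*, a laminin of early basement membranes, at 1666 against 36.0 CPM at T6 and 478 against 51.0 CPM at T9.

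A group of cells with at least 5 UMIs each of *Srgn* and *Lama1* and under 2 of *Tdgf1* was set apart after these values were seen. In order of time it had 2, 0, 8, and 16 cells, with 1.31%, 0%, 31.1%, and 16.1% of the pair's UMIs. Its level of *Mt1* plus *Mt2* was 2521 CPM at T6 and 2551 CPM at T9. The cells outside both this group and the *Tdgf1* class, 1119 of 1147 at T9, had 254, 50.9, 67.0, and 159 CPM at T0, T3, T6, and T9. The order of the time points was thus the same in the bulk of the cells, at lower levels.

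Dividing cells, taken as those with 2 or more UMIs over *Mki67*, *Top2a*, *Ube2c*, *Aurkb*, *Ccnb1*, and *Cdc20*, had more *Mt1* and *Mt2* than other cells at T9. Among 225 dividing cells the *Mt1* level was 405, 1050, and 157 CPM on the 3 plates, against 94.2, 137, and 55.8 CPM in 922 other cells. The difference was 2.16 on the log2 scale (SE 0.33), higher on 3 of 3 plates, with an edgeR adjusted p of 2.0e-05 over 12221 genes, of which 10.2% were called at T9. The call held in every alternative run, with adjusted p up to 0.0395. *Mt2* was 216, 802, and 26.6 CPM against 24.5, 46.5, and 30.7 CPM, a difference of 2.79 (SE 0.49, edgeR adjusted p = 0.000132) seen on 2 of 3 plates and not called by DESeq2 (adjusted p = 0.130). Of the 12 *Tdgf1* cells and the 16 *Srgn* and *Lama1* cells of T9, 10 and 13 were dividing. With both groups left out, *Mt1* was 348, 260, and 105 CPM against 90.2, 117, and 53.6 CPM, still higher on every plate.

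The same contrast gave less firm values earlier. At T6, where 4.20% of genes were called, *Mt1* was 196, 80.3, and 160 CPM in 391 dividing cells against 55.4, 50.8, and 77.4 CPM (log2 difference 1.18, SE 0.36, edgeR adjusted p = 0.0608). *Mt2* at T6 was 144, 15.1, and 40.0 CPM against 18.3, 5.25, and 3.37 CPM (2.81, SE 0.66, edgeR adjusted p = 0.00747). Without the cells of 2 or more *Tdgf1* UMIs that adjusted p was 0.162 in edgeR, and DESeq2 gave 0.172 on all cells. At T3, where 6.10% of genes were called, *Mt2* was 29.3, 123, and 20.3 CPM in 510 dividing cells against 1.07, 6.65, and 0 CPM (4.48, SE 1.03, edgeR adjusted p = 0.0053). All 13 *Tdgf1* cells of T3 were dividing, and without them the edgeR adjusted p was 0.102. Leaving out single plates also ended these *Mt2* calls, with edgeR adjusted p of 0.134 without T3-2 at T3, and of 0.298 without T6-1 and 0.0669 without T6-3 at T6. With both the *Tdgf1* and the *Srgn* and *Lama1* cells left out, *Mt1* at T6 was 37.8, 42.6, and 74.1 CPM in dividing cells against 55.4, 51.0, and 75.2 CPM, lower on every plate. *Mt2* was then 8.28, 1.22, and 16.9 CPM against 18.3, 5.28, and 3.37 CPM, higher on plate 3 alone. On all cells the *Mt1* difference at T6 passed the threshold when any of 7 plates of other time points was left out.

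At T0, where 10.3% of genes were called and all 77 *Tdgf1* cells were dividing, neither gene was called. *Mt1* was 409, 198, and 252 CPM in 888 dividing cells against 242, 546, and 81.1 CPM in 259 others, and plate 2 went against the others (log2 difference 0.18, 95% interval −0.49 to 0.84, edgeR adjusted p = 0.834). Without plate 2 the edgeR fit called both genes, with 1.21 for *Mt1* (adjusted p = 0.0177) and 2.07 for *Mt2* (adjusted p = 0.00591). Without the *Tdgf1* cells the difference was −0.93, with an edgeR adjusted p of 0.0698.

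*Sox9*, a transcription factor of cartilage and tendon progenitors, was detected in 593 of 1147 T0 cells. *Mt1* was 286, 226, and 209 CPM in them and 540, 266, and 238 CPM in the cells without *Sox9*, a difference of −0.49 (SE 0.10, edgeR adjusted p = 0.0256) when 0.565% of genes were called. *Mt2* was 225, 180, and 131 CPM against 487, 247, and 182 CPM (−0.73, SE 0.10, edgeR adjusted p = 0.000416). Both were lower on 3 of 3 plates. Neither was called by DESeq2, with adjusted p of 1.00 and 0.452, or without the *Tdgf1* cells, of which 35 held *Sox9* and 42 did not. Leaving out T0-1 also ended the *Mt1* call (−0.22, edgeR adjusted p = 0.698). Without the *Tdgf1* cells *Mt1* was 94.0, 189, and 97.6 CPM against 196, 157, and 184 CPM, with plate 2 reversed.

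Cells with and without *Scx* were compared at the treated time points, where many cells held it (81.1%, 79.1%, and 39.0% from T3 to T9). The widest gaps were on the plates T3-2, T6-1, and T6-3. At T3 *Mt1* was 23.9, 20.5, and 21.6 CPM with *Scx* and 19.4, 390, and 14.4 CPM without (−2.24, SE 0.66, edgeR adjusted p = 0.137, with 0.801% of genes called). *Mt2* was 17.9, 26.2, and 6.12 CPM with *Scx* and 7.26, 355, and 38.3 CPM without (−2.67, SE 0.58, edgeR adjusted p = 0.0272). Without T3-2, whose *Scx*-negative class had 61 cells, the *Mt2* difference was −1.05 with an edgeR adjusted p of 0.701, and that of *Mt1* turned to 0.45. Without T3-3 the *Mt2* call also ended (edgeR adjusted p = 0.0914), and without T3-1 that of *Mt1* was made (−2.87, edgeR adjusted p = 0.0183). With the *Tdgf1* cells left out, *Mt2* at T3 was 2.69, 5.33, and 0.835 CPM with *Scx* and 0, 284, and 0 CPM without. Only T3-2 was then lower with *Scx*, and the other plates went the other way near 0. At T6 *Mt1* was 90.2, 66.1, and 64.4 CPM with *Scx* and 385, 30.8, and 381 CPM without (−1.62, SE 0.46, edgeR adjusted p = 0.143, with 0.523% of genes called). *Mt2* at T6 was 50.5, 8.42, and 3.45 CPM against 309, 6.17, and 110 CPM (−2.87, SE 0.50, edgeR adjusted p = 0.0042), but 0.261 without the *Tdgf1* cells, 0.133 without T6-1, 0.0763 without T6-3, and 0.627 by DESeq2. Without T6-2 the *Mt1* difference was −2.32 (edgeR adjusted p = 0.000745).

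At T9 the *Scx* classes overlapped for both genes. *Mt1* was 151, 319, and 103 CPM with *Scx* and 184, 366, and 74.3 CPM without, a difference of −0.05 with a 95% interval of −0.86 to 0.76 (edgeR adjusted p = 1.00, with 0.413% of genes called). *Mt2* was 31.9, 184, and 20.2 CPM against 107, 243, and 36.0 CPM, lower on 3 of 3 plates (−0.94, SE 0.42, edgeR adjusted p = 0.735). The T3 effect of *Scx* minus that at T9 was −2.19 for *Mt1* and −1.73 for *Mt2*, with edgeR adjusted p of 0.453 and 0.593 and 0.0928% of genes called, so a change of the effect with time was not shown.

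*Tnmd* encodes tenomodulin, a membrane protein of mature tendon cells, and marked 64, 49, and 34 cells per plate at T6. *Mt1* was 263, 163, and 82.9 CPM in them and 99.4, 39.0, and 123 CPM in the rest (1.02, SE 0.29, edgeR adjusted p = 0.111, with 0.831% of genes called). At T9 it was 167, 740, and 151 CPM against 168, 293, and 77.5 CPM (0.78, SE 0.27, edgeR adjusted p = 0.239, with 1.30% of genes called). *Mt2* gave 0.36 at T6 and 0.24 at T9, with edgeR adjusted p of 0.956 and 0.920. T6-3 and T9-1 were not higher with *Tnmd*, so the *Tnmd* classes did not separate for either gene. With those plates left out in turn the *Mt1* difference was called, at 1.63 without T6-3 (edgeR adjusted p = 4.62e-06) and at 1.21 without T9-1 (edgeR adjusted p = 0.0236).

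**Figure D4:**
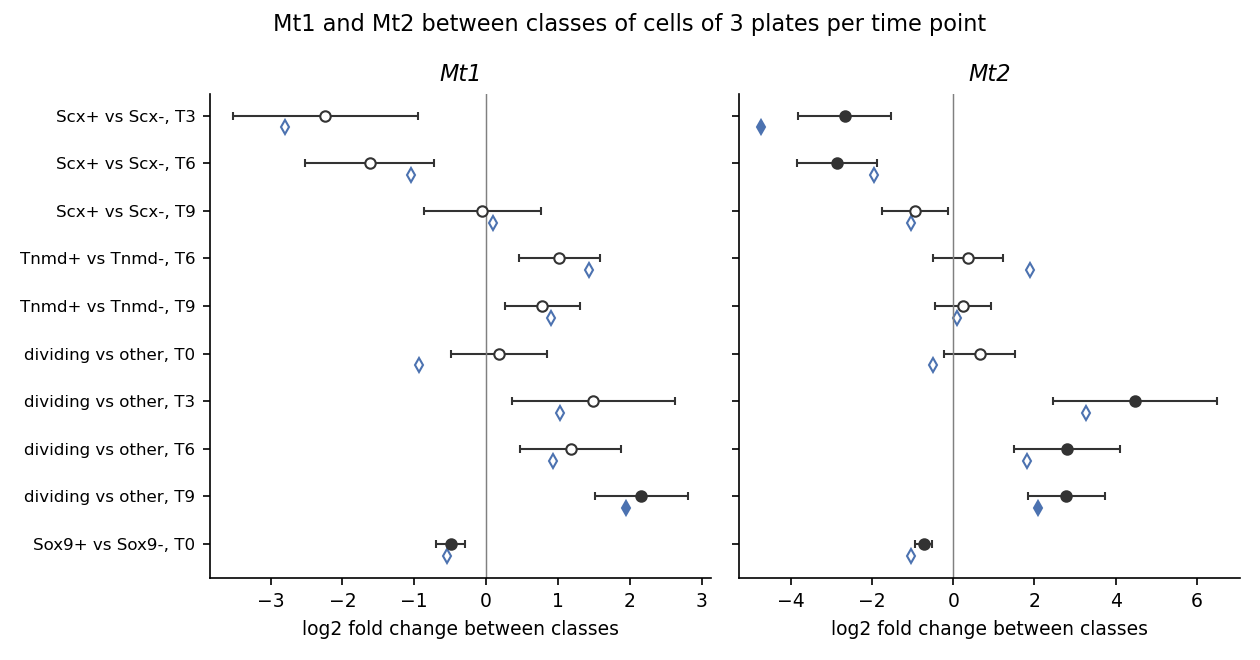
Log2 difference in *Mt1* and *Mt2* between cell classes by edgeR (x axis, with 95% intervals) for each class and time point (y axis), over 3 plates each. Dividing against other cells at T9 lies at 2.16 for *Mt1* and 2.79 for *Mt2*, while the *Scx* classes at T9 lie at −0.05 and −0.94.

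Over the 12 plates the genes whose log2 CPM was most like that of *Mt1* plus *Mt2* were *Fabp3*, a fatty acid binding protein of muscle (r = 0.95), *Nup62cl* (0.95), *Ptcd2* (0.92), *Syf2*, a splicing factor (0.90), and *Phlda1* (0.90), out of 10964 ranked. *Fabp3* had mean levels of 15.1, 2.21, 7.42, and 11.6 CPM at T0, T3, T6, and T9. The transcription factor gene *Mtf1* had r = 0.55, *Slc30a1* 0.14, *Tdgf1* 0.54, and *Scx* −0.77. The plates share their time point, so these values mostly follow the order of the time points. With time point means removed, the highest were *Tmem170* (0.94), *Pir* (0.93), *Saal1* (0.91), *Hist1h2bc* (0.91), and *Trabd* (0.90), with *Tdgf1* at 0.75 and *Mtf1* at −0.02.

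Over T0 cells, as the mean of the 3 within-plate values, the closest of 6246 genes were *Cdh1*, which encodes E-cadherin (r = 0.53), *Utf1* (0.52), the glucose transporter gene *Slc2a3* (0.51), *Sox2* (0.48), and *Mkrn1* (0.46). All 5 were higher in the *Tdgf1* cells than in other T0 cells, with 240 against 91.5 CPM of *Cdh1*, 1498 against 56.3 CPM of *Utf1*, 705 against 80.2 CPM of *Slc2a3*, 773 against 20.9 CPM of *Sox2*, and 1243 against 60.5 CPM of *Mkrn1*. These correlations share cells and depth with the *Tdgf1* class and are descriptions.

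Genes that act with metallothioneins were followed as lists of zinc, copper, iron, NRF2 and glutathione, and glucocorticoid genes. Between T3 and T0, 3 of 18 zinc genes rose and 1 fell, with a median log2 change of 0.11 beside 0.01 over all genes. Over all genes tested 17.0% were higher and 16.2% lower, so the zinc list was near that background. *Slc39a1*, a zinc importer, rose by 1.06 (SE 0.27, edgeR adjusted p = 0.00811), and *Slc30a5*, which loads zinc into the secretory pathway, by 0.92 (edgeR adjusted p = 0.00125). *Slc30a7* was called at 0.61, and *Mtf1* fell by 0.60 (SE 0.21, edgeR adjusted p = 0.0438). Neither of those calls held when a plate of T0 was left out, and *Mtf1* was not called by DESeq2 (adjusted p = 0.0516). *Slc30a1*, the other well-known MTF1 target, had −0.42 (SE 0.42, edgeR adjusted p = 0.478).

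Of the glucocorticoid list, 8 of 11 genes rose from T0 to T3 (median 1.05), beside 17.0% higher and 16.2% lower over all genes tested. *Ddit4*, an mTOR inhibitor induced by stress, rose by 2.43, and *Nr3c1*, the glucocorticoid receptor gene, by 2.37 (SE 0.29, edgeR adjusted p = 3.33e-05). *Per1*, *Sgk1*, and *Klf9* rose by 1.35, 1.33, and 1.08. Of the NRF2 and glutathione list, 4 of 18 fell, among them *Txnrd1*, a thioredoxin reductase, by 2.21 (SE 0.19, edgeR adjusted p = 1.6e-06), *Srxn1* by 1.78, and *Nfe2l2*, the gene of NRF2 itself, by 0.77. In the copper list 1 of 12 rose and 1 fell. *Lox*, a copper enzyme that cross-links collagen, rose by 7.78 (SE 0.42, edgeR adjusted p = 2.02e-08), and *Steap3*, a metalloreductase, fell by 1.77. In the iron list 2 of 13 rose, with *Hmox1*, which degrades haem, up by 2.03 and *Fth1*, the ferritin heavy chain, by 1.09. The counts of the NRF2 and glutathione, copper, and iron lists were not far from those shares for lists this small. Nothing is read from these counts. The calls of *Steap3*, *Klf9*, and *Fth1* each ended when certain single T0 or T3 plates were left out, and the number of list genes called at T3 against T0 went from 21 to 14 without T0-2.

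At T9, 23.6% of all genes tested were higher than at T0 and 21.6% lower, beside which the list counts stand. In the zinc list 8 of 18 were higher and 1 lower, led by the zinc importers *Slc39a13* (1.501, SE 0.39, edgeR adjusted p = 0.00613) and *Slc39a14* (1.36, SE 0.34, edgeR adjusted p = 0.00527), while *Mtf1* and *Slc30a1* had −0.10 and −0.50 (edgeR adjusted p = 0.721 and 0.342). In the glucocorticoid list 9 of 11 were higher and 1 lower (median 1.52), with *Cebpd* at 3.02 and *Nr3c1* at 2.79 and with *Fkbp5*, a classical target of the receptor, at −0.95. In the copper list 4 of 12 were higher, in the iron list 3 of 13 were higher, and in the NRF2 and glutathione list 4 of 18 were higher and 2 lower. *Gstm1*, a glutathione transferase, was 2.55 higher and *Txnrd1* −1.97. Between T3 and T6 edgeR called 2 list genes, *Cebpd* (1.34) and the transferrin receptor gene *Tfrc* (−1.21), and between T6 and T9 it called 3, *Steap3* (2.79), *Cebpd* (1.59), and *Gstm1* (1.40). For all genes tested the shares were 2.61% higher and 1.63% lower from T3 to T6, and 0.935% higher and 0.688% lower from T6 to T9. *Mt3* was too low to test, with 1 UMI in all cells, as was *Mt4*, with 3.

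In Achilles tendon the targeted gene came first. *Scx* was 103 and 81.3 CPM in the Scx_Wt samples and 23.1 and 25.1 CPM in the Scx_homoKO samples. *Mt1* was 27.3 and 15.4 CPM in Scx_Wt and 42.7 and 32.5 CPM in Scx_homoKO (means 21.3 ± 8.37 and 37.6 ± 7.24 CPM, SD, n = 2), a ratio of 1.76. *Mt2* was 20.5 and 9.79 CPM in Scx_Wt and 49.8 and 32.0 CPM in Scx_homoKO (15.1 ± 7.55 and 40.9 ± 12.6 CPM), a ratio of 2.70. Neither gene overlapped between the groups, though the gap for *Mt1* was small beside the spread within each. With 2 samples a group, genes without a difference also often fail to overlap. The share of all genes that do so is not given here, so nothing is read from the lack of overlap. An edgeR call is another measure, by which 1.77% of 14602 genes tested were higher and 2.07% lower in Scx_homoKO.

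*Mt3*, a gene of the lists, was 10.3 CPM on average in Scx_homoKO against 2.28 CPM in Scx_Wt, with 184 and 69 counts against 29 and 24. Its log2 difference was 2.22 (SE 0.49, edgeR adjusted p = 0.0405), and the call ended without Scx_homoKO replicate 1 (adjusted p = 0.223), Scx_Wt replicate 1 (0.062), or Scx_Wt replicate 2 (0.1005). *Mt4* had 0 counts in all 4 samples, where 3 counts would be the upper limit that a count of 0 allows.

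**Figure D5:**
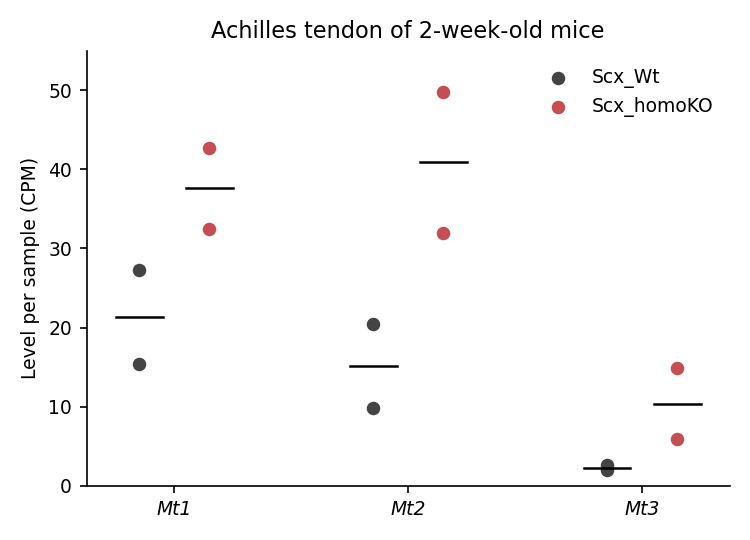
Level of *Mt1*, *Mt2*, and *Mt3* (CPM, y axis) in each Achilles tendon sample, 2 Scx_Wt and 2 Scx_homoKO, with a line for each mean. The means in Scx_homoKO and Scx_Wt are 37.6 and 21.3 CPM for *Mt1*, 40.9 and 15.1 CPM for *Mt2*, and 10.3 and 2.28 CPM for *Mt3*.

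Summed marker levels of several cell types also differed between the tendon groups. The 10 tenocyte markers, all detected, summed to 168404 and 155084 CPM in Scx_Wt and to 75355 and 86641 CPM in Scx_homoKO. That list holds *Scx* itself, and also *Tnmd* and *Col1a1*, which the study describes as genes that Scx activates. Its sum can therefore not show a change in the number of tenocytes. The 8 muscle markers summed to 32151 and 61530 CPM against 77943 and 81464 CPM. The 6 keratinocyte markers, 1 of them at 0, summed to 8.85 and 7.51 CPM against 67.3 and 48.2 CPM, and the 6 epithelial markers, 1 at 0, to 2.95 and 3.34 CPM against 23.2 and 12.6 CPM. The 7 chondrocyte markers, 2 at 0, summed to 2862 and 2983 CPM against 387 and 356 CPM, and the 7 adipocyte markers to 3535 and 1543 CPM against 973 and 501 CPM. The chondrocyte list was *Col2a1*, *Acan*, *Col9a1*, *Matn1*, *Col11a2*, *Comp*, and *Snorc*. Its sum is set by its highest members, whose levels are not given here, so it is not read as a number of chondrocytes. The 9 blood and macrophage markers overlapped, with 397 and 234 CPM against 283 and 275 CPM. The part of these in the metallothionein levels was not tested, and in bulk tissue fewer cells of a type and less RNA per cell cannot be told apart.

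In Scx_homoKO tendon no gene of the zinc, copper, iron, NRF2 and glutathione, or glucocorticoid lists was called higher. Over all genes tested 1.77% were higher and 2.07% lower. A single call in a list of 13 to 19 genes is too little to set against that share. In the zinc list 2 of 20 tested genes fell, *Slc39a14* by 0.78 and *Slc39a13* by 0.76 (edgeR adjusted p = 0.0315 and 0.0209), while *Mtf1* had 0.47 and *Slc30a1* −0.16 (edgeR adjusted p = 0.384 and 0.816). In the glucocorticoid list 3 of 13 fell, *Ddit4* by 1.16, *Tsc22d3*, which encodes the glucocorticoid-induced leucine zipper, by 1.03, and *Sgk1* by 0.66. The cystine transporter gene *Slc7a11* fell by 3.50 (SE 0.37, edgeR adjusted p = 0.000984), 1 of 19 genes of the NRF2 and glutathione list. The iron exporter gene *Slc40a1* fell by 1.24, 1 of 13 iron genes, and the metalloreductase gene *Steap4* by 1.06, 1 of 15 copper genes. *Slc39a13*, *Slc39a14*, *Steap4*, and *Sgk1* lost their call when certain single samples were left out.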

How the data were processed

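The single-cell table holds the UMI counts per gene and well that the authors deposited, without normalization or a filter on cells, and the tendon table holds deposited read counts per gene. The submitters' processing notes name Trim Galore, HISAT2 (2.2.1 and 2.0.4), featureCounts (1.5.0), UMI-tools 1.0.1, and GRCm38. The annotation and strand setting of the tendon counts are not given in the sources used here. Reads of CEL-Seq2 lie near the 3′ end, so transcripts with separate starts are not told apart.

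Wells with at least 200 genes were kept, and 3 entries outside Ensembl, with 0.0642% of UMIs, were left out. Symbols and positions came from GENCODE M21. UMIs were summed per plate, or per plate and cell class, and fitted with edgeR 4.0.16 in R 4.3.3 (filterByExpr, TMM, quasi-likelihood test, Benjamini-Hochberg adjustment over all genes tested, call at 0.05). For the time course all 12 plates stood in 1 fit, and the tendon samples stood in another. Each kind of cell class had its own fit, with the plate as a block, over the plates of its time points. Those were T3, T6, and T9 for *Scx*, T6 and T9 for *Tnmd*, T0 to T9 for dividing cells, and T0 for *Sox9*. Descriptions used Python 3.11.15, numpy 2.4.6, and pandas 2.3.3, and figures matplotlib 3.10.9. DESeq2 1.42.0, DESeq2's size factors, no filter, stricter UMI minimums, thinned cells, and leaving out each plate or sample were the alternatives. Fits without the cells of 2 or more Tdgf1 UMIs, or without the 10 highest cells, were added after the data were seen. On simulated data with 200 changed genes, edgeR called 191 (T9 against T0), 194 (tendon), and 192 (Scx classes at T3), with 8, 16, and 9 false calls. The changed genes lay above the median level and were changed 3-fold, and no plate effect was simulated. These numbers therefore do not give the power for the pair, whose UMIs sat in few cells.

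The members, lists, and tests were chosen with earlier results of these data known. The text names Mt1, Mt2, the class genes, Mtf1, and Slc30a1 always, up to 5 called genes per list and comparison with the largest change, and the 5 genes most like the pair in each ranking. The labels call the tendon mice littermates but tie no sample number to a litter, and they tie no plate number to a culture. Precision is set by the UMIs behind each level, and shares of cells cover the cells sorted only. No library repeated another, with a chi-square per gene of at least 2.98 between plates of a time point. No protein sequences were used here. Calls of lower iron genes over the time course are not reported here in full.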

Additional observations from a re-analysis of the deposited data

Results flagged for a closer look

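The Sox9 classes went in opposite directions at different time points, and this difference was not tested. For *Mt1*, cells with a *Sox9* UMI were lower than cells without on all 3 T0 plates, with a log2 ratio of the pooled levels of −0.54, and higher on all 3 T6 plates, with 0.99. At T6 the *Mt1* level was 149, 93.2, and 163 CPM with *Sox9* and 111, 43.1, and 68.0 CPM without. For *Mt2* the log2 ratio was −0.77 at T0 and −4.10 at T3, lower on all 3 plates each time, and 1.54 at T6, higher on all 3. At T6 the *Mt2* level was 110, 18.2, and 37.5 CPM with *Sox9* and 59.9, 3.25, and 3.61 CPM without, and at T3 it was 2.56, 5.27, and 0 CPM against 18.9, 117, and 14.6 CPM. Cells with 2 or more *Tdgf1* UMIs lay unevenly between these classes. They numbered 35 with *Sox9* and 42 without at T0, 1 and 12 at T3, and 5 and 1 at T6. Without those cells no class difference was in 1 direction on all 3 plates at T0, T3, or T6 for *Mt2*, or at T0 and T6 for *Mt1*. At T6 plate 1 then had 76.0 CPM of *Mt1* with *Sox9* against 101 CPM without, and 18.4 against 37.8 CPM of *Mt2*. At T3 plate 1 had 2.56 against 2.01 CPM of *Mt2*, and at T0 plate 2 had 189 against 157 CPM of *Mt1* and 149.7 against 96.5 CPM of *Mt2*.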

How the results depend on the processing

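*Mt1* and *Mt2* rest on few UMIs in few cells, and few plates, so most differences between cell classes depend on single plates or on the *Tdgf1* cells. Depth limits both, since most cells held no UMI of *Mt1*, or of *Mt2*, at every time point. The call of *Mt1* in dividing cells at T9 kept its direction and its side of the threshold under all alternatives run. Of 41 results, 22 had a test, and their recomputed values counted as unchanged if direction and call were kept. A level counted so if it moved by less than its spread between plates or samples, and a number of list genes if it stayed close. Apart from plates and samples left out, 176 values were unchanged, 17 lost a call, 17 gained one, 9 changed sign, and 7 moved. With a plate or sample left out, 245 were unchanged, 8 lost a call, 20 gained one, 9 changed sign, and 12 moved. The causes of the changes below were not tested.

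For the levels, the *Mt1* difference between T0 cells with a *Scx* UMI and others went from −2.05 to −1.10 (log2) without the *Tdgf1* cells, and the *Mt2* difference between T3 and T0 went to −5.13 without the 10 highest cells per time point. For the gene lists, the 2 genes called from T3 to T6 became 5 with DESeq2, 9 with no filter, and 14 with the kind of plate as a covariate. The 3 called from T6 to T9 became 7 with no filter and 6 with that covariate. At T3 against T0 leaving out a plate of either gave 14 to 21 in place of 21. Leaving out a plate gave 1 to 5 genes from T3 to T6 and 0 to 6 from T6 to T9, with 0 without T6-3 or without T9-1. Leaving out a tendon sample gave 4 to 6 in place of 9. Same-numbered samples did not deviate together, with r from −0.56 to 0.52 over 18 pairs of plates, of which 4 were above 0.1, and 0.07 for the tendon samples. With the replicate number as a block, 19 in place of 21 list genes were called at T3 against T0, 32 in place of 34 at T9 against T0, and 2, 3, and 9 in the other comparisons, as before.

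The values that follow are log2 differences that crossed the threshold or changed sign. With no filter on low counts these newly passed it: *Scx* classes for *Mt1* at T3 (−2.14) and T6 (−1.48), for *Mt2* at T9 (−0.97), and for T3 minus T9 (−2.06 for *Mt1*, −1.62 for *Mt2*), *Tnmd* classes for *Mt1* at T6 (0.94) and T9 (0.71), and dividing cells for *Mt2* at T0 (0.78) and *Mt1* at T3 (1.49) and T6 (1.19). With stricter UMI minimums *Mt1* passed for *Scx* at T3 (−2.58), *Tnmd* at T9 (0.82), and dividing cells at T3 (2.10) and T6 (1.51), and *Mt2* for *Scx* at T9 (−1.88). The *Tnmd* values then turned to −0.62 (*Mt1*) and −2.75 (*Mt2*) at T6 and to −0.67 (*Mt2*) at T9. In cells thinned to 3000 UMIs *Mt1* passed for *Scx* at T3 (−1.65) and dividing cells at T3 (1.46), and *Mt2* turned for *Tnmd* at T6 (−1.63) and T9 (−0.25).

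DESeq2 ended the calls of *Mt2* for *Scx* at T3 (−1.997) and T6 (−2.54), for dividing cells at T6 (2.65) and T9 (2.37), and of both genes for *Sox9* (−0.46 and −0.70), and it turned *Mt2* for *Tnmd* at T9 (−0.23). Without the plate block the calls of *Mt2* for *Scx* at T3 (−2.86) and T6 (−2.69), for dividing cells at T3 (4.46) and T6 (2.88), and of both genes for *Sox9* (−0.54 and −0.78) ended. Without the *Tdgf1* cells the calls of *Mt2* ended for *Scx* at T6 (−1.9595) and for dividing cells at T3 (3.27) and T6 (1.81), and those of both genes for *Sox9* (−0.55 and −1.03). *Mt1* for *Scx* at T9 (0.10) and both genes for dividing cells at T0 (−0.93 and −0.51) changed sign.

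Leaving out each plate gave these ranges. For *Scx* at T3, *Mt1* ran from −2.96 to 0.45 and *Mt2* from −3.45 to −1.05. At T6 they ran from −2.32 to −1.04 and from −3.28 to −2.14. At T9 *Mt1* ran from −0.25 to 0.0805, and for T3 minus T9 from −2.90 to 0.50. For *Tnmd*, *Mt1* ran from 0.63 to 1.63 and *Mt2* from −0.18 to 0.80 at T6, and from 0.41 to 1.21 and −0.36 to 0.46 at T9. For dividing cells, *Mt1* ran from −0.37 to 1.21 at T0, 0.12 to 2.33 at T3, and 0.85 to 1.38 at T6, and *Mt2* from −0.0406 to 2.07, 4.24 to 5.57, and 2.61 to 3.08. For *Sox9*, *Mt1* ran from −0.62 to −0.22. Signs changed without T3-2 (*Mt1*, *Scx* at T3 and T3 minus T9), T9-1 or T9-2 (*Mt1*, *Scx* at T9), T6-2 (*Mt2*, *Tnmd* at T6), T9-2 (*Mt2*, *Tnmd* at T9), and T0-1 or T0-3 (dividing cells at T0, *Mt2* only for T0-3).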
